A study of Mus musculus with 4 samples.

Results

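The bile acid synthesis and transport genes described here were 10 genes expressed in mouse liver, taken by name: Cyp7a1, Cyp8b1, Cyp27a1, Cyp7b1, Cyp39a1, Baat, Nr1h4, Nr0b2, Slc10a1 and Abcb11. Every non-control probe of the array that carried 1 of these names was included, which gave 13 of the 41174 probes. Cyp7a1, Cyp39a1 and Baat had 2 probes each and the other genes had 1. All 13 probes were well above background in all 8 channels, that is, in the GALP and the control channel of each of the 4 arrays, so no member was lost to a filter on dim signals.

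The liver RNA came from male C57BL/6J mice (as the labels name the strain) with diet-induced obesity, which were 8 weeks old at purchase. They ate a high-fat diet for 14 weeks, weighed at least 40 g and kept access to the diet during dosing. An acclimatization period came before dosing, 2 weeks by the labels and 1 week by the study's methods. The methods describe daily nasal saline for all mice in that period. For 11 days, 8 mice received a daily nasal dose of 2 µL of porcine galanin-like peptide (GALP, a neuropeptide that lowers food intake and body weight), prepared at 1 nmol in saline with 5% α-cyclodextrin, and 8 control mice received saline. RNA of 4 GALP mice with greater weight loss formed the first GALP pool, RNA of the 4 with less weight loss formed the other, and RNA of all 8 control mice formed a single control pool. Every pool of GALP RNA shared 2 arrays with control RNA, a forward array with GALP in Cy5 and a swap array with GALP in Cy3. The diet and the obesity were common to all groups, and no lean or chow-fed group was present. The labels name saline as the treatment of the control mice and also speak of vehicle alone, so whether the control doses held α-cyclodextrin is not settled by them. The mice of a pool cannot be told apart, since pooling averaged them before the measurement. The GALP pools were themselves formed by weight loss, so weight loss and pool cannot be told apart either.

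Bile acids are made from cholesterol in hepatocytes. In the classical pathway CYP7A1 carries out the rate-limiting first step, and CYP8B1 then decides how much of the product becomes cholic acid. In the alternative pathway CYP27A1 oxidises the sterol side chain, and the resulting oxysterols are hydroxylated by CYP7B1. CYP39A1 hydroxylates 24-hydroxycholesterol, a side-chain oxysterol of brain origin that is not a product of CYP27A1. BAAT joins the finished bile acid to taurine or glycine. The sodium-dependent carrier NTCP (Slc10a1) takes bile acids up from portal blood, and the bile salt export pump BSEP (Abcb11) secretes them into the canaliculus. The bile acid receptor FXR (Nr1h4) induces SHP (Nr0b2), a nuclear receptor without a DNA-binding domain that represses Cyp7a1 and Cyp8b1, and FXR also activates Abcb11.

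Values are log2 ratios of GALP over control, where 0 means equal signal and 1 a doubled signal. The value of a pool is the mean of its forward and swap arrays, and the mean ± SD is over the 2 pools (n = 2). The pools share 1 control pool, so the spread of the control mice enters no value. Following the methods of the study, read strictly, a probe was called when the p of the image software was under 0.01 and the direction the same on all 4 arrays and the fold was over 1.5 or under 0.75 in both pools. This called 78 of the 41037 probes with a value on every array, or 0.19%. limma with Benjamini-Hochberg adjustment over the same probes, with 1 residual degree of freedom, called none (0%), and its smallest adjusted p was 0.374, while 4759 probes (11.6%) had an unadjusted p under 0.05. The 4 arrays lay on 1 slide, with 40.5% to 46.7% of the probes well above background in a channel and no saturated spot. The hepatocyte markers Alb, Apoa1, Ttr, Cps1 and Serpina1c were all well above background in every channel, with mean log2 ratios from -0.06 to 0.17. In whole liver RNA, fewer cells of a type and less RNA per cell cannot be told apart.

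None of the 13 member probes was called in both pools, against a background of 0.19% of all probes and 0.443% of the 14444 probes that were well above background in all channels (well-measured). In the greater weight loss pool alone, 1 member probe met the fold and p criteria, Cyp7a1 on the higher side, where 0.651% of those 14444 probes did (0.297% of all probes). In the less weight loss pool alone, 1 member probe met them on the lower side, Cyp7b1, where 0.768% of the 14444 probes did (0.366% of all probes). The ratio had the same sign on all 4 arrays at 7 of the 13 member probes, 3 higher and 4 lower, where 27.9% of the 14444 probes did (11.8% higher and 16% lower) and 12% of all probes (5.33% higher and 6.63% lower). These were both Cyp39a1 probes and 1 of Cyp7a1 on the higher side, and Cyp8b1, both Baat probes and Abcb11 on the lower side. With 1 probe per gene, the one of highest mean signal, the median log2 ratio over the 10 genes was -0.14, from -0.40 for Nr0b2 to 0.55 for Cyp7a1. The median over the 10650 well-measured genes was -0.01. No member had a limma adjusted p under 0.05, and the lowest was 0.374; without adjustment 3 member probes had a limma p under 0.05, namely Cyp39a1 (A_52_P557265) on the higher side and Cyp8b1 and Baat (A_51_P245123) on the lower, where 20.5% of the well-measured probes passed.

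**Figure D1:**
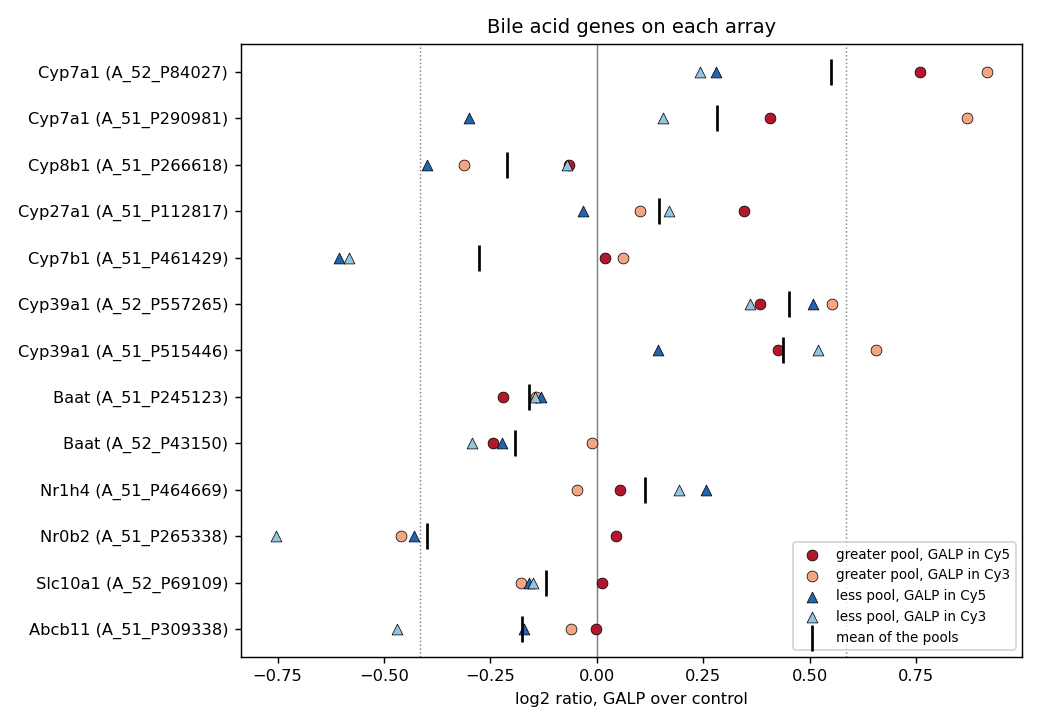
Log2 ratio of GALP over control at each of the 13 member probes (horizontal axis) on each of the 4 arrays. Circles are the greater and triangles the less weight loss pool, dark for GALP in Cy5 and light for GALP in Cy3, the vertical tick is the mean of the pools, and the dotted lines mark the folds of 0.75 and 1.5. Cyp39a1 lies right of 0 on every array at both probes, Cyp7a1 (A_52_P84027) has its highest values, 0.76 and 0.92, in the greater weight loss pool, and Cyp7b1 lies left of the lower line, at -0.61 and -0.58, in the less weight loss pool alone.

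Cyp7a1, the rate-limiting enzyme of the classical pathway, gave the highest mean of the members at its probe of highest signal. Its other probe, at 0.28, lay below both Cyp39a1 probes, at 0.45 and 0.44. Without the greater weight loss pool Cyp39a1 (0.43) lay above Cyp7a1 (0.26) at the probes of highest signal too. At probe A_52_P84027 (mm9, chr4:6193456-6193515) the log2 ratio was 0.76 on the forward and 0.92 on the swap array of the greater weight loss pool, and 0.28 and 0.24 on those of the less weight loss pool. All 4 arrays were above 0, and the arrays of the pools did not overlap. The processed signal of the control pool was 3071, 2875, 2981 and 2663 on these arrays in the same order, and that of the GALP pools was 5192, 5424, 3618 and 3151. The control signal thus varied little from array to array, and the higher ratio of the greater weight loss pool lay in the GALP channel. The pools had 0.84 (1.79-fold) and 0.26 (1.20-fold), with a mean of 0.55 ± 0.41 (SD, n = 2; limma adjusted p = 0.676).

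The other Cyp7a1 probe, A_51_P290981 (mm9, chr4:6195632-6196238), has 60 bases but spans 607 bases of the genome, so it crosses a splice junction of the Cyp7a1 transcript and detects spliced RNA. Its sequence is shown because the 2 probes of the gene differed in the less weight loss pool.
Cyp7a1 A_51_P290981: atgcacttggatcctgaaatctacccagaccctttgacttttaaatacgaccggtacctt
Its log2 ratio was 0.41 and 0.87 in the greater weight loss pool and -0.30 and 0.16 in the less weight loss pool. The greater weight loss pool was above control at both probes, and the arrays of the less weight loss pool lay on either side of 0 at this one. The pool values were 0.64 and -0.07, with a mean of 0.28 ± 0.50 (limma adjusted p = 0.758). The direction of Cyp7a1 in the less weight loss pool thus differed between its probes, at 0.26 and -0.07. The greater pool exceeded the less pool by 0.58 and 0.71 at the 2 probes.

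Cyp8b1, which steers the classical pathway to cholic acid (A_51_P266618, mm9, chr9:121824595-121824654), had -0.07 and -0.31 in the greater and -0.40 and -0.07 in the less weight loss pool. All 4 arrays were below 0, and the pools overlapped. The pools had -0.19 and -0.23, and the mean was -0.21 ± 0.03 (limma adjusted p = 0.382). The 2 arrays within each pool differed by 0.25 and 0.33, several times the difference of 0.05 between the pool means, so the small SD between pools did not carry over to the single arrays.

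In the alternative pathway, Cyp27a1, the mitochondrial side-chain hydroxylase (A_51_P112817, mm9, chr1:74782203-74782262), had 0.34 and 0.10 in the greater and -0.03 and 0.17 in the less weight loss pool. Its mean was 0.15 ± 0.11 (limma adjusted p = 0.684), with arrays on both sides of 0 and overlapping pools.

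Cyp7b1, the oxysterol hydroxylase whose liver RNA is known to be higher in male than in female mice (A_51_P461429, mm9, chr3:17972286-17972345), had 0.02 and 0.06 in the greater and -0.61 and -0.58 in the less weight loss pool. The greater weight loss pool was level with control, the less weight loss pool lay below it on both arrays, and the pools did not overlap. The control signal was 3186, 2705, 3143 and 3128, and the GALP signal was 3231, 2823, 2065 and 2088. The arrays of the less weight loss pool met the fold and p criteria at 0.662 times control, with p values of the image software of 0.00416 and 0.00572. The pool values were 0.04 and -0.59, so the mean of -0.28 ± 0.45 (limma adjusted p = 0.727) describes neither pool.

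Cyp39a1, which hydroxylates 24-hydroxycholesterol, lay above control on every array at both of its probes. At probe A_52_P557265 (mm9, chr17:43887373-43887432) they were 0.38 and 0.55 in the greater and 0.51 and 0.36 in the less weight loss pool, and at A_51_P515446 (mm9, chr17:43887005-43887064) they were 0.43 and 0.66 in the greater and 0.14 and 0.52 in the less weight loss pool. All 8 values were above 0, and the pools overlapped at both probes. The means were 0.45 ± 0.02 (limma adjusted p = 0.374) and 0.44 ± 0.15 (limma adjusted p = 0.471), or 1.37-fold and 1.35-fold. These folds are under the 1.5 of the study's criterion, and the p of the image software was under 0.01 on 1 of 4 arrays at each probe. At A_52_P557265 the 2 arrays within the pools differed by 0.17 and 0.15, against 0.03 between the pool means. The small SD at that probe thus did not carry over to the single arrays. Its adjusted p of 0.374 was the smallest of all probes and was shared by others, Hsd3b7 and Sult2a8 among them.

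The spot of A_52_P557265 stood apart on the swap array of the less weight loss pool. Its control signal was 711, 456 and 522 on the other arrays and 2227 on that array, 4.88 times the value on the other swap array, and its GALP signal of 2857 was also the highest of the 4. Among the well-measured probes 0.291% differed over 4-fold between the control channels of the swap arrays. At the other Cyp39a1 probe the control signals of the swap arrays, 798 and 755, differed by 1.06-fold. Taking the less weight loss pool from its forward array alone, an alternative chosen after seeing the data, gave a mean of 0.49 at A_52_P557265 (limma adjusted p = 0.549).

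**Figure D2:**
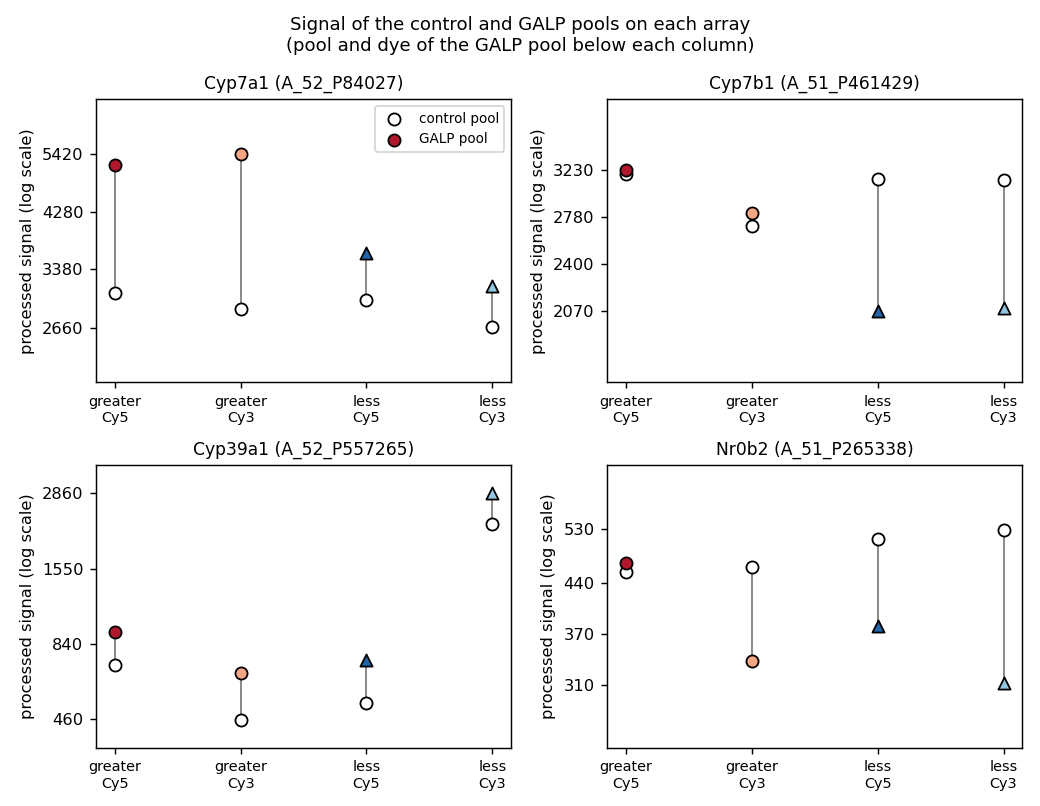
Processed signal (vertical axis, log scale, software units) of the control pool (open circles) and the GALP pool (filled symbols) at 1 probe each of Cyp7a1, Cyp7b1, Cyp39a1 and Nr0b2, with the 4 arrays side by side and the pool and dye of the GALP sample below each. The GALP signal of Cyp7a1 reaches 5192 and 5424 in the greater weight loss pool, that of Cyp7b1 is 2065 and 2088 in the less weight loss pool, and both channels of the Cyp39a1 spot are brighter on the last array. Panels have axes of their own and are not to be set against each other.

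Baat, which conjugates bile acids with taurine or glycine, was below control by a small amount at both probes. At A_51_P245123 (mm9, chromosome 4) the log2 ratio was -0.22 and -0.14 in the greater and -0.13 and -0.15 in the less weight loss pool, and the mean was -0.16 ± 0.03 (limma adjusted p = 0.407). At A_52_P43150 it was -0.25 and -0.01 in the greater and -0.22 and -0.29 in the less weight loss pool, with a mean of -0.19 ± 0.09 (limma adjusted p = 0.546). All 8 values were below 0, and the pools overlapped at both probes. None of the 4 arrays had a software p under 0.01 at either probe.

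Nr1h4 (FXR), the bile acid receptor (A_51_P464669, mm9, chr10:88917299-88917358), had 0.05 and -0.05 in the greater and 0.26 and 0.19 in the less weight loss pool. The greater pool was level with control and the less pool lay slightly above it, without overlap. The mean was 0.11 ± 0.16 (limma adjusted p = 0.702), and it turned to -0.01 under another background correction.

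Nr0b2 (SHP), the repressor that FXR induces, had the lowest mean of the members as processed by the software, which depended on that processing. At A_51_P265338 (mm9, chr4:133109694-133109753) the log2 ratio was 0.04 and -0.46 in the greater and -0.43 and -0.75 in the less weight loss pool. The forward array of the greater weight loss pool was level with control and the other 3 arrays were below it, and the pools overlapped. The control signal was 458, 464, 511 and 527, and the GALP signal was 472, 337, 380 and 313. The pools had -0.21 and -0.59, 0.865 and 0.664 times control, and the mean was -0.40 ± 0.27 (limma adjusted p = 0.647). The arrays of the greater weight loss pool differed by 0.51, and the software p was under 0.01 on 1 of 4 arrays. With normexp background correction and loess the mean was -0.18, and that of Abcb11, -0.35, was then the lowest.

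The promoter table from RefSeq (GRCm38.p6) held 6 of the 10 members, Cyp27a1, Cyp8b1, Nr1h4, Nr0b2, Abcb11 and, with 2 start sites, Slc10a1. The 250 bases before the start site of Nr0b2 and Abcb11 are shown because both genes are textbook targets of FXR, whose own probe lay near control, and because their ratios are set beside that of Nr5a2 (LRH-1), the activator of Nr0b2, below. Both strands were searched for TCAAGG, an NR5A2 motif, for AGGTCA, the hexamer that many nuclear receptors bind, and for the E-box CACGTG. A motif specific to FXR was not among these, so the search cannot tell whether either window held an FXR site. No match overlapped another.
Nr0b2 (chr4:133553126-133553375, + strand): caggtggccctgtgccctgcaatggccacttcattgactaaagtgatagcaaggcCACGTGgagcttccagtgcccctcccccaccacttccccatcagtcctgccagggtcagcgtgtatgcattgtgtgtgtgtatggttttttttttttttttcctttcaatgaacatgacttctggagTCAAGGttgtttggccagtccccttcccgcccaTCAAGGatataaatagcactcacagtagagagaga
Abcb11 (chr2:69342617-69342866, - strand): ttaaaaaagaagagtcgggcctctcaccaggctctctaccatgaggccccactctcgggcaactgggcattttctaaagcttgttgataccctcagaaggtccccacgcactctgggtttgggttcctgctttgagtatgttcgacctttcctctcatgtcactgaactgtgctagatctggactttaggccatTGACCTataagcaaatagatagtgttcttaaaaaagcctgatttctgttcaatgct
The capitals mark the matches. In Nr0b2 these are the E-box, 195 to 190 bases before the start site, and the NR5A2 motif at 68 to 63 and again at 35 to 30 bases before it. In Abcb11 it is the hexamer on the other strand, at 56 to 51 bases before the start site. Of 32851 windows of the same length, 12.5% held the NR5A2 motif, 14% the hexamer and 6.02% the E-box. The hexamer also lay in the Nr1h4 window and in 1 of the Slc10a1 windows, and none of these motifs was found in those of Cyp27a1 and Cyp8b1. A match describes the letters of the window and is no evidence of binding in these livers.

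Of the transporters, Slc10a1 (NTCP), the main sodium-dependent uptake carrier (A_52_P69109, mm9, chr12:82061470-82061529), had 0.01 and -0.18 in the greater and -0.16 and -0.15 in the less weight loss pool. Its mean was -0.12 ± 0.05 (limma adjusted p = 0.525), and the pools overlapped. Abcb11 (BSEP), the canalicular export pump (A_51_P309338, mm9, chr2:69076390-69076449), had -0.00 and -0.06 in the greater and -0.17 and -0.47 in the less weight loss pool, with a mean of -0.18 ± 0.20 (limma adjusted p = 0.702). The greater weight loss pool was level with control and the less weight loss pool was below it, without overlap between the pools. The software p was above 0.01 on every array for both transporters.

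Each pool was a group of 1, so differences between pools are given without a test. The greater weight loss pool exceeded the less weight loss pool by 0.64 at Cyp7b1, by 0.58 and 0.71 at the Cyp7a1 probes, by 0.38 at Nr0b2 and by 0.29 at Abcb11. At the other members the pools differed by 0.03 to 0.22 in size, with Nr1h4 the largest of these at -0.22. Over the 10650 well-measured genes the median size of this difference was 0.10 and its 95th percentile 0.41, so the Cyp7a1 and Cyp7b1 probes lay beyond that percentile and the other members within it. The median over the 10 genes was -0.01 in the greater and -0.15 in the less weight loss pool. The forward and swap arrays of a pool differed by up to 0.51 in the greater and up to 0.46 in the less weight loss pool at the member probes, within the 95th percentiles of 0.60 and 0.73 over the well-measured genes.

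**Figure D3:**
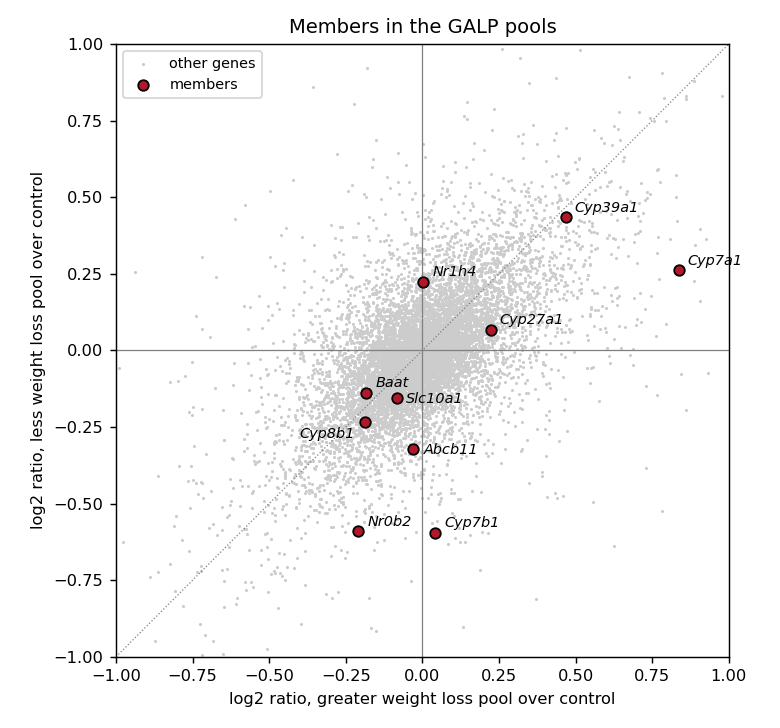
Log2 ratio over control in the less weight loss pool (vertical axis) against that in the greater weight loss pool (horizontal axis), for the 10 members with 1 probe each (red) and 10650 well-measured genes (grey, of which 96 lie outside the axes). The dotted line marks equal values, and both axes share the control pool. Cyp39a1 lies near the line at 0.47 and 0.43, Cyp7a1 lies to the right of it at 0.84 and 0.26, and Cyp7b1 lies below it at 0.04 and -0.59.

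The other genes of the pathway were read from 3 lists. Over all 16363 genes measured, with 1 probe per gene, 0.361% were called, and 9.89% were higher and 10.7% lower on all 4 arrays (13.1% and 14.8% of the well-measured genes). Of 13 further enzymes of bile acid synthesis and modification, none was called, and with 1 probe per gene 1 was higher and 3 were lower on all 4 arrays, with a median of -0.03. The lowest of the well-measured ones was Hsd3b7, the steroid dehydrogenase that acts after CYP7A1, at -0.47 and -0.42 in the greater and less weight loss pools, followed by Scp2, the peroxisomal thiolase of side-chain shortening, at -0.17 and -0.14, and Amacr, the side-chain racemase, at -0.15 and -0.02. The highest was Cyp3a11, which hydroxylates bile acids and many drugs, at 0.29 and 0.20, ahead of Acot8 and Acox2, peroxisomal enzymes of the side chain, which both had a mean of 0.03.

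Of 14 further genes of transport and detoxification, 1 was called, Slco1a1, a sinusoidal organic anion carrier, which fell by the study's criterion as read strictly here. At its called probe, A_51_P165111, the log2 ratio was -1.04 in the greater and -2.96 in the less weight loss pool (mean -2.00 ± 1.36, limma adjusted p = 0.648). The size of the decrease there differed between the pools more than at any member. A dimmer Slco1a1 probe, A_51_P103144, was not called and had pool values of -0.51 and -1.80. Its ratio was 0.26 on the swap array of the greater weight loss pool, and 1 of 4 GALP channels was well above background. The bile acid sulfotransferase Sult2a8 had -0.52 and -0.53 and the carrier Slco1b2 had -0.30 and -0.17. On the other side, the carrier Slco1a4 had 0.19 and 0.45, the basolateral exporter Abcc3 0.08 and 0.23, and the epoxide hydrolase Ephx1 0.22 and 0.01. The median of this list was -0.01, and 2 genes were higher and 3 lower on all 4 arrays.

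Of 17 regulators none was called, with a median of 0.13, and 6 were higher and 4 lower on all 4 arrays. The lowest were the parts of the FGF15 receptor, through which the gut represses Cyp7a1: the co-receptor Klb had -0.42 and -0.43 and the kinase Fgfr4 had -0.14 and -0.42. The coactivator Ppargc1a followed at -0.27 and -0.29. Nr5a2 (LRH-1), which activates Nr0b2, Cyp7a1 and Cyp8b1, had -0.26 and -0.28 and was named after its value had been seen. The highest were the forkhead factors Foxo1, at 0.41 and 0.29, and Foxa2, at 0.21 and 0.32, and Onecut1, a hepatocyte factor, at 0.61 and -0.04. The gut hormone FGF15 itself, from the ileum, was at background.

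**Figure D4:**
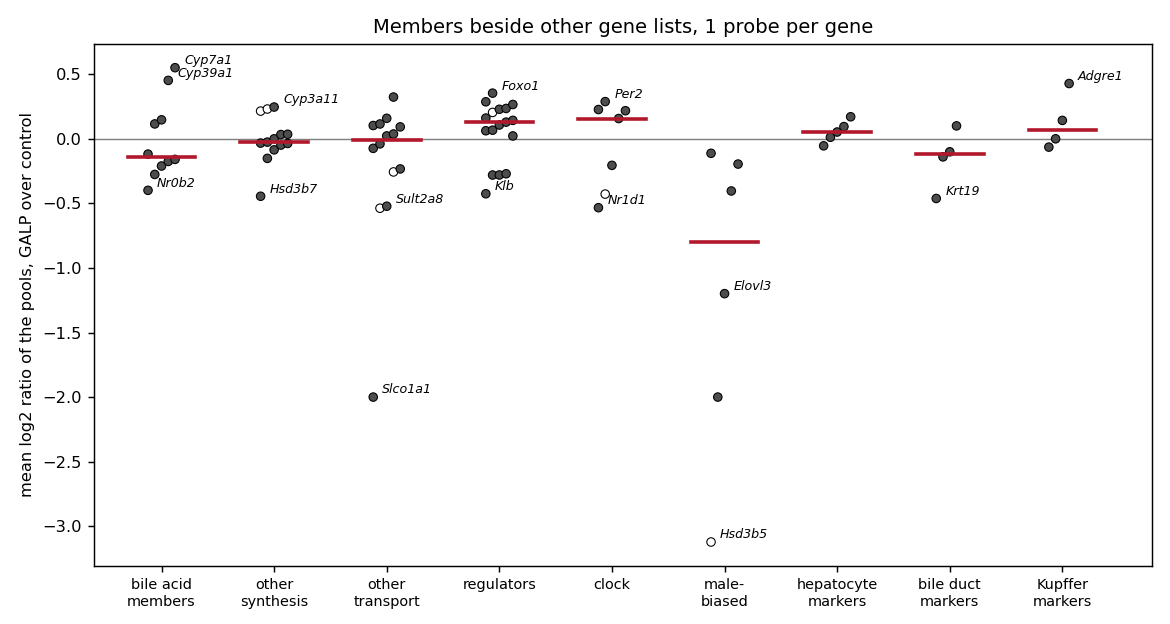
Mean log2 ratio of the 2 pools (vertical axis) for every measured gene of 9 lists, 1 probe per gene. Filled points were well above background in all 8 channels and open points were not, and the red bar is the median of the list. The members lie between -0.40 and 0.55 with a median of -0.14. The male-biased genes, a list chosen with earlier results of these data known, extend from -0.11 to -3.12.

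Cyp7a1 RNA follows a daily rhythm and Cyp7b1 is male-biased, so 2 further lists were set beside them. Of 10 clock genes 7 were measured (median 0.16), from Nr1d1, a repressor of the clock loop, at -0.15 in the greater and -0.92 in the less weight loss pool to Per2, a core clock component, at 0.29 and 0.28. Nr1d1 met the criteria on the lower side in the less weight loss pool alone, as Cyp7b1 did. The hour of sampling is not given in the sources used here, and its part in the Cyp7a1 ratios was not tested. Of 6 male-biased genes measured, 3 were called lower, where 0.238% of all genes measured were: Slco1a1, Elovl3, a fatty acid elongase, at -0.89 and -1.51, and Hsd3b5, a steroid dehydrogenase, at -1.76 and -4.49 (well above background in 3 of 4 GALP channels). The highest was Cyp2d9, a male-specific cytochrome, at -0.07 and -0.15, and the median of the list was -0.80. This list was chosen with earlier results of these data known, and the paper names the 3 called genes among those that decreased. Their count therefore depends on that choice and is no test of male-biased genes. The 3 called genes lay lower in the less than in the greater weight loss pool, as Cyp7b1 did; a common source of these differences was not tested, and all of them share the control pool.

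Markers of other liver cells were checked beside the members. Of the 6 bile duct markers, Epcam and Cftr were at background and 4 were measured. Their mean log2 ratios ran from -0.46 to 0.10, with a median of -0.12. The lowest was Krt19 (named, like Adgre1, after its value had been seen), at -0.82 in the greater and -0.10 in the less weight loss pool. All 4 Kupffer cell markers were measured, with means from -0.07 to 0.43 and a median of 0.07. Adgre1 was the highest of them, at 0.42 and 0.44. Stellate and endothelial markers, 3 genes each, had medians of 0.12 and -0.12. Of 5 ileal markers Fgf15 and Vil1 were at background. The other 3 were measured, 2 of them well above background in all channels. Their mean log2 ratios ran from -0.24 to 0.54, with a median of -0.07. The part of cell composition in the member ratios was not tested.

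The genes whose 4 array ratios were most like those of the members with the largest means were taken from 14431 well-measured probes of other genes by Euclidean distance on the log2 scale. Nearest to Cyp7a1 (A_52_P84027) were Gvin1, Blnk, Synpo, Itgax and Rab7b, at distances of 0.14 to 0.26. Nearest to Cyp39a1 (A_52_P557265) were Txnip, Clec4n, Fyb, Pirb and Marcks, at 0.08 to 0.14. The likeness rests on 4 arrays of 2 pools against 1 control pool and is a description of these arrays.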

How the data were processed

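Liver RNA of 2 GALP pools and 1 control pool was measured on 4 two-colour arrays, 1 dye-swap pair per GALP pool. The authors deposited the scanner output, in which processed signal intensities are background-subtracted and dye-normalised by LOWESS and each spot has a log10 ratio with an error-model p-value, and a series table of log10 ratios, which matched the scanner ratios with GALP as numerator, except at spots set to 0. The scale of this table was thus known and its centring was that of the software, with column medians of -0.0396, -0.0134, 0.0049 and 0.0046. The file headers give Feature Extraction 12.0.3.1, scanner G2600D and build mm9, and the submitters' processing notes give Feature Extraction 11.0.1.1. Control channels are also labelled by weight loss. The study's methods describe 1 control pool, which was followed.

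Each log10 ratio was rescaled to log2 with GALP as numerator. Control spots and outlier-marked spots (232 to 319 of 43379 per array) were left out, spots of a probe were averaged (median p), and dye-swap arrays were averaged to 1 value per pool. The arrays' number limits the precision, and since mice were pooled the p-values measure the spread between 2 pools against 1 control pool. Calls followed the methods' criterion, read strictly. The pool ratios were tested against 0 by limma 3.58.1 (R 4.3.3) with Benjamini-Hochberg adjustment over 41037 probes. The code was tested on simulated data. Members and gene lists were chosen with earlier results of these data known. Named were all member probes, called genes and the 3 highest and lowest well-measured genes of the synthesis, transport and regulator lists, called genes and the highest and lowest of the clock and male-biased lists, and the 5 nearest genes by distance of 2 members. Of 8 male-biased genes listed, 6 had a probe by name. Alternatives covered background correction, the series table, centring, outlier marks, a signal filter, single dye orientations, single pools, the p criterion, variance models and the probe per gene.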

Additional observations from a re-analysis of the deposited data

Results flagged for a closer look

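Cyp7b1 (A_51_P461429) was picked out because both arrays of the greater weight loss pool lay above 0, at 0.02 and 0.06, and both arrays of the less weight loss pool lay below it, at -0.61 and -0.58. The greater weight loss pool exceeded the less by 0.64. With 1 pool per group the difference was not tested, and the values of the greater weight loss pool are close to 0.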

How the results depend on the processing

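The single change of processing that brought a member under an adjusted p of 0.05 treated the 4 arrays as samples with the pool as a random block. limma then called 1 member, Cyp39a1 (A_52_P557265, adjusted p = 0.0487), and 185 of all probes. The estimated correlation between arrays of a pool was -0.47, which narrows the error of the mean, and the arrays are technical repeats. Under the other alternatives the smallest adjusted p of a member ran from 0.0555 with another background correction to 0.581 with the series table. Leaving out either pool gave 1 called member each (range 1 to 1), Cyp7a1 or Cyp7b1, since a single pool then has to pass. Of 117 planned recomputed member ratios, 114 kept their sign. The exceptions were Cyp7a1 (A_51_P290981), at -0.072 without the greater and 0.64 without the less weight loss pool, Cyp7b1, at -0.59 and 0.041 without these pools, and Nr1h4, at -0.011 with normexp background correction and loess; the cause of the last was not tested. Normexp also moved Nr0b2 from -0.40 to -0.18, Abcb11 from -0.18 to -0.35, Cyp7b1 from -0.28 to -0.18, Cyp7a1 (A_51_P290981) from 0.28 to 0.15 and Baat (A_52_P43150) from -0.19 to -0.076. The member median stayed between -0.15 and -0.01 under every alternative, the latter without the less weight loss pool, and that of the other pathway genes between 0.00 and 0.04. No limma value was possible with 1 pool, which leaves no residual degrees of freedom. GALP and control RNA were paired within each array by the ratios, and no analysis paired by animal was possible because the mice were pooled. Without replicate mice or control pools, member differences of the size seen here cannot be set against variation between animals.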
